A study of Mus musculus with 16 samples.

Results

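The genes described here were 40 genes of autophagy and the lysosome, taken by symbol from the 49585 genes counted in C2C12 cells. C2C12 is a line of mouse muscle precursors whose cells stop dividing and join into multinucleate myotubes when serum is withdrawn. All 40 matched a gene identifier in the deposited tables and all 40 were protein-coding. RNA-seq was performed in 16 libraries, with 8 groups of 2 libraries each. The first set held wild-type C2C12 cells (WT) and C2C12 cells in which AMPK alpha 1 and alpha 2, encoded by Prkaa1 and Prkaa2, had been knocked out by CRISPR-Cas9 (AMPK-KO), each at day 0 (d0, labelled myoblasts) and at day 8 (d8) after confluent cells were moved to low horse serum. The second set held AMPK-/- cells carrying a FLAG-BirA tag knocked in at the endogenous Tet2 locus. In TET2-WT cells the tag was added to the normal protein, and in TET2-S97E cells serine 97 was also changed to glutamic acid, which stands in for the phosphorylated serine. All TET2 libraries were labelled d0, and each genotype had 2 clones with 2 libraries a clone, so a clone is 1 edited line and its libraries share it. The study used more than 1 AMPK-KO line, and the labels do not say which line each AMPK-KO library came from.

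Autophagy encloses cytoplasm in a double membrane that then fuses with the lysosome. The ULK complex starts the process, the class III PI3-kinase complex marks the membrane with a lipid, and a ubiquitin-like conjugation system attaches ATG8 proteins (the LC3 and GABARAP families) to the growing membrane, where cargo receptors bind them. AMPK phosphorylates ULK1 in energy stress, the MiT/TFE factors TFEB, TFE3 and MITF activate lysosome and autophagy genes, and autophagy takes part in the remodelling of muscle cells during differentiation.

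The edited genes were examined first. Prkaa1, the alpha 1 catalytic subunit of AMPK, was at 158.5 and 158.6 CPM (counts scaled to the size of the library) in WT d0, 79.66 and 78.03 in AMPK-KO d0, 126.2 and 124.9 in WT d8, and 83.34 and 82.49 in AMPK-KO d8. The knockout libraries lay below the WT libraries at both days and still held transcripts. By edgeR's quasi-likelihood test, the log2 fold change (± SE) was -1.01 ± 0.13 at d0 (adjusted p = 0.0116) and -0.60 ± 0.13 at d8 (adjusted p = 0.0419). Prkaa2, the alpha 2 subunit, was at 1.688 and 1.789 CPM in WT d0, 0.2094 and 0.4208 in AMPK-KO d0, 6.225 and 10.13 in WT d8, and 1.265 and 0.8258 in AMPK-KO d8. It was lower in the knockout libraries at both days, with an adjusted p of 0.0527 at d0 and 0.019 at d8 (edgeR). In the TET2 set, Prkaa1 lay between 73.45 and 103.9 CPM and Prkaa2 between 0.4539 and 1.732 CPM. Tet2, a DNA demethylation enzyme, was at 34.27, 22.52, 58.39 and 56.44 CPM in the TET2-WT libraries (clone 1, then clone 2) and at 12.91, 21.97, 7.875 and 22.12 CPM in the TET2-S97E libraries. All TET2-S97E libraries were below all TET2-WT libraries for the edited gene itself, and the difference missed the threshold (log2 fold change -1.40 ± 0.39, adjusted p = 0.0621, edgeR).

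Library totals were 17883417 to 24663079 counts in the WT and AMPK-KO set and 19801909 to 37790358 in the TET2 set. All 40 genes passed the filter on low counts in both sets, and they took 0.665 to 1.02% of the counts of a library in the first set and 0.934 to 1.22% in the second. Replicates of 1 group were not equally close. In WT d0, 3 of the 40 genes differed over 2-fold between the libraries (Hexa at 259.9 and 86.64 CPM, Ctsl at 682.5 and 1488, Bnip3 at 28.17 and 59.37). In AMPK-KO d8, Map1lc3a differed over 2-fold, at 139.6 and 299.3 CPM. The labels do not say whether the libraries of a group came from separate cultures, so the p-values measure only the spread between these libraries, which may be technical.

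Markers of the labelled cell type were present in all libraries. Myoblast markers (Myod1, Myf5, Des, Cdh15 and Vcam1) summed to 1327 to 3948 CPM in the WT and AMPK-KO set and to 1070 to 3944 CPM in the TET2 set. Des was the most abundant of them in every library, so the sum mostly followed Des. In AMPK-KO against WT at d0, 4 of the 5 had negative fitted changes and 1 a positive one. Only Myod1 was called there (log2 fold change -3.29 ± 0.45, adjusted p = 0.0147, edgeR). Between the TET2-S97E clones, Myod1, Des and Cdh15 were called lower in clone 2 and Vcam1 higher. The sum of 8 myotube markers (Myog, Myh3, Myh8, Mymk, Ckm, Acta1, Tnnt3 and Actn2), of which Acta1 was the most abundant in 13 of 16 libraries and Tnnt3 in AMPK-KO d0 replicate 2 and both TET2-WT clone 1 libraries, was 154.7 and 100.2 CPM in WT d0, 18 and 12.06 in AMPK-KO d0, 4964 and 6861 in WT d8, and 1639 and 9576 in AMPK-KO d8. The sum was thus high in both genotypes at d8, with a wide gap between the AMPK-KO libraries. The single markers did not move alike. In AMPK-KO against WT at d8, 6 of the 8 had negative fitted changes and 2 positive ones. These ran from -4.925 for Actn2 to 1.985 for Ckm on the log2 scale, and none was called. In the TET2 set, labelled d0 throughout, the same sum was 10.76 and 13.55 CPM in TET2-WT clone 1, 29.86 and 218.9 in TET2-WT clone 2, 4798 and 1512 in TET2-S97E clone 1, and 1581 and 327.4 in TET2-S97E clone 2. The TET2-S97E libraries all lay above the TET2-WT libraries, so myotube transcripts moved with the genotype as well as with the day. Macrophages are rich in lysosomes, and their defining marker Adgre1 had 0 counts in every library while Ptprc and Itgam had 0 or 1. The 6 blood cell markers summed to 8.54 to 24.92 CPM in the first set and 22.83 to 42.35 CPM in the second, mostly from Cd14. By group the sum was 11.38 and 13.77 CPM in WT d0, 15.75 and 19.87 in AMPK-KO d0, 10.47 and 8.54 in WT d8, and 18.11 and 24.92 in AMPK-KO d8. Each AMPK-KO library was thus above every WT library, and the part of these cells or of Cd14 in the genotype differences was not tested. In the TET2 set the genotypes overlapped. In bulk RNA, fewer cells of a type and less RNA per cell cannot be told apart.

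In undifferentiated WT cells the lysosomal genes and a cargo receptor led the list. Per kilobase of merged exon, the level in WT d0 was highest for Lamp1, the main glycoprotein of the lysosomal membrane, at 341 ± 130 CPM per kb (SD, n = 2). It was followed by Sqstm1, the cargo receptor p62, at 218 ± 23.4. The cathepsin proteases Ctsb, Ctsd and Ctsl came next at 177 ± 52.1, 171 ± 57.2 and 167 ± 87.8 CPM per kb. These 3 did not differ beyond their spread. The Lamp1 libraries (433.3 and 249.6) did not overlap the Sqstm1 libraries (234.1 and 201.0), although the lower one lay close to them. The lowest levels were those of 2 transcription factors, Mitf at 1.61 ± 0.21 and Tfeb at 1.83 ± 0.11 CPM per kb, and of Atg16l1, a scaffold of the conjugation machinery, at 3.36 ± 0.38. Lamp1 alone made 18.4% of the summed per-kilobase level of the 40 genes. Merged exons of 9 of the 40 genes overlapped another gene over more than 10% of their length, among them Becn1 (43.9%), Ctsd (34.4%), Ctsl (26.8%), Bnip3 (22.3%), Sqstm1 (17.3%) and Ctsb (12.8%). The strand setting of the counting is not given in the sources used here, so reads there could not be assigned with certainty.

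**Figure D1:**
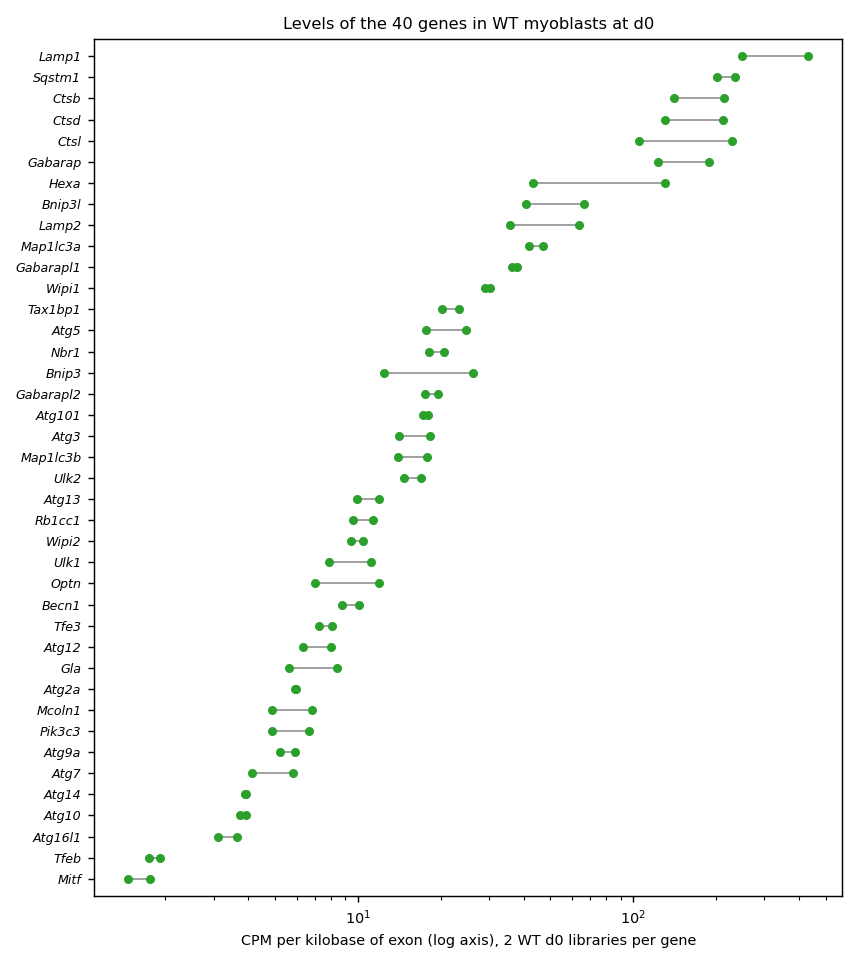
Level of the 40 genes in WT d0, in CPM per kilobase of merged exon on a log axis, with 1 point per library and genes ordered by mean level. Lamp1 and Sqstm1 were highest (341 and 218 CPM per kb on average), and Mitf and Tfeb were lowest (1.61 and 1.83).

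Promoter sequence was available for 32 of the 40 genes from the RefSeq table (build GRCm38.p6), as windows of 300 bases around the start site. They were searched for CACGTG, the E-box core of the CLEAR element to which MiT/TFE factors bind, and for the longer TCACGTGA, which contains it. Both are palindromes and so read the same on both strands. CACGTG occurred in 10 of the 32 promoters (31.2%) and in 8.09% of the promoters of all 27025 genes in the table. TCACGTGA occurred in 4 (Atg3, Ctsd, Gla and Mcoln1, 12.5%) against 1.12%. The 10-base form of the element, which adds a G before and a C after it, occurred in 0 of the 32 promoters, beside 0.37% of all. A match is a description of the sequence, not a measured binding site. The stretches shown are those of the 3 genes called in a comparison that hold the motif, Ctsd, Ctsl and Bnip3, and of Lamp1. Per kilobase of merged exon Lamp1 was the highest of the genes in WT d0, and its window held 4 copies. Capitals mark the motif, and each stretch reads 5′ to 3′ on the strand of the gene.
Lamp1, plus strand, chr8:13159095-13159154: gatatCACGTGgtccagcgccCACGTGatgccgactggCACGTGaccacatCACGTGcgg
Ctsd, minus strand, chr7:142387908-142387937: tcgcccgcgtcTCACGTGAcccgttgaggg
Ctsl, minus strand, chr13:64370739-64370768: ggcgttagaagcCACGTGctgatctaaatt
Bnip3, minus strand, chr7:138909582-138909641: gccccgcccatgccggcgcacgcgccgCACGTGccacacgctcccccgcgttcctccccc
The copies in Lamp1 began 61, 45, 28 and 15 bases before the start site. The CACGTG core of the motif shown began 98 bases before the start in Ctsd, which held a further CACGTG 245 bases before it, 236 bases before in Ctsl and 108 bases before in Bnip3. These distances are to the RefSeq start site. By the GENCODE coordinates, the stretches of Ctsd and Ctsl lay inside the gene, downstream of its outermost start (142388038 on chr7 and 64370890 on chr13).

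The first question was how these genes changed between d0 and d8. In WT cells 6 of the 40 genes rose and 0 fell (adjusted p under 0.05, edgeR's quasi-likelihood test), where 12.4% of the 14329 genes tested were called, 5.78% higher and 6.58% lower. The risers were 3 ATG8 genes (Map1lc3a, Map1lc3b and Gabarapl2), the ULK complex subunit Atg13, the transcription factor Mitf and the protease Ctsd. The 6 amount to 15% of the genes. In AMPK-KO cells 3 rose, Map1lc3a, Map1lc3b and Mitf (7.5%), and 0 fell, where 9.76% of all genes were called, 4.81% higher and 4.95% lower. These counts moved with the setting, by over 1.5 times in both genotypes. With only the 4 libraries compared, edgeR called Atg13 and Map1lc3a in WT (beside 8.85% of all genes). In AMPK-KO it then called Map1lc3a, Map1lc3b and Lamp2 (beside 5.99%). In WT and AMPK-KO respectively the risers numbered 8 and 8 by DESeq2 (beside 18.1 and 17.2% of all genes called), 9 and 12 by edgeR with no filter on low counts (13.1 and 12.1%), 7 and 7 with at least 10 counts in every library (13.3 and 12.5%) and 8 and 8 with a replicate block (16.5 and 12.9%), and the 6 and 3 do not show that the genotypes differed. Both d8 libraries lay above both d0 libraries for 26 genes in each genotype (65%, beside 31.3% of all genes in WT and 30.2% in AMPK-KO), and below them for 1 gene in each, Tfe3 in WT (2.5%, beside 30.2%) and Gla in AMPK-KO (beside 28.9%). The fitted change was positive for 33 of 40 genes in each genotype, and the median log2 fold change of the 40 was 0.40 for WT cells and 0.34 for AMPK-KO cells, beside 0.01 and 0.02 over all genes tested.

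**Figure D2:**
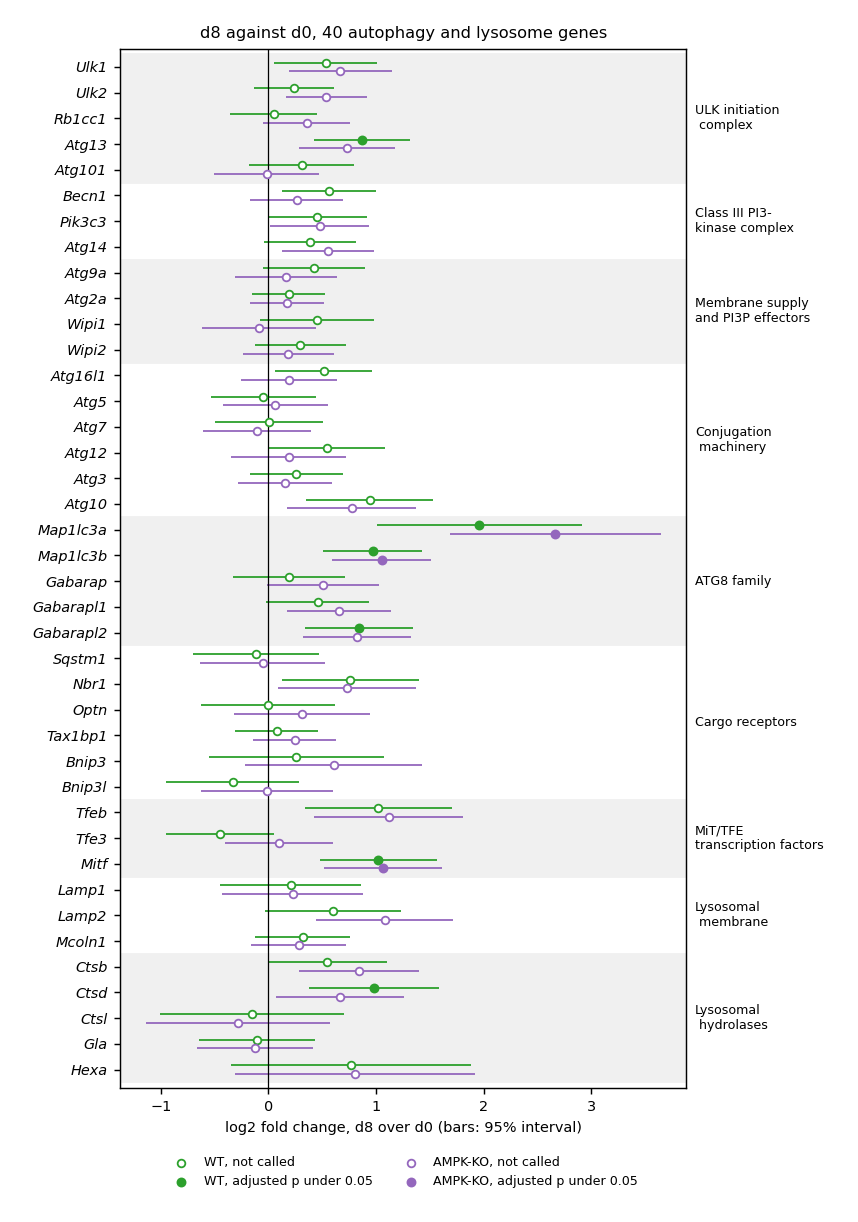
Log2 fold change of d8 over d0 for the 40 genes, grouped by role, in WT (green) and AMPK-KO (purple). Bars are 95% intervals of edgeR's fit and filled points passed an adjusted p of 0.05. Most points lay right of 0 in both genotypes, and Map1lc3a lay farthest right (1.96 and 2.67).

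Among the initiation genes, the ULK complex had 1 of 5 genes called in WT and 0 in AMPK-KO. Atg13 (chr2:91674618-91710576, GRCm38), the subunit that links ULK1 to the rest of the complex, was at 52.23 and 43.43 CPM in WT d0 and 81.81 and 93.23 in WT d8. The groups did not overlap, and the log2 fold change was 0.87 ± 0.19 (95% interval 0.42 to 1.32, adjusted p = 0.0312, edgeR). With a replicate block Atg13 was also called in AMPK-KO (0.73, adjusted p = 0.047, edgeR). Ulk1, the kinase itself, was at 72.64 and 50.8 CPM in WT d0 and 93.37 and 84.97 in WT d8, and at 45.95 and 39.69 in AMPK-KO d0 and 72.33 and 63.64 in AMPK-KO d8. Its d8 libraries lay above its d0 libraries in each genotype, and neither difference passed the threshold (log2 fold changes 0.53 ± 0.20 and 0.67 ± 0.20, adjusted p = 0.128 and 0.0842, edgeR). With a replicate block both passed (adjusted p = 0.0497 and 0.0363, edgeR). Becn1, the Beclin 1 subunit of the class III PI3-kinase complex, went from 71.14 and 61.97 to 88.03 and 108.8 CPM in WT and from 71.18 and 74.43 to 76.28 and 98.37 in AMPK-KO. Its log2 fold change was 0.56 ± 0.19 in WT (adjusted p = 0.089, edgeR) and 0.26 in AMPK-KO (adjusted p = 0.394, edgeR). All 3 genes of that complex had positive fitted changes in both genotypes, none of them called. The 4 genes of membrane supply (Atg9a, Atg2a, Wipi1 and Wipi2) and the 6 of the conjugation machinery (Atg16l1, Atg5, Atg7, Atg12, Atg3 and Atg10) held no called gene in either genotype, with median log2 fold changes for WT of 0.36 and 0.39 and for AMPK-KO of 0.17 in both groups. With a replicate block Atg10 was called in WT (0.94, adjusted p = 0.0484, edgeR).

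The ATG8 family held 3 of the 6 called genes in WT and 2 of the 3 in AMPK-KO. All 5 members had positive fitted changes in each genotype, with medians of 0.84 and 0.82. Map1lc3a (chr2:155276297-155278073), which encodes LC3A, was at 49.34 and 55.52 CPM in WT d0, 24.76 and 44.32 in AMPK-KO d0, 186.2 and 221.7 in WT d8, and 139.6 and 299.3 in AMPK-KO d8. Every d8 library lay above every d0 library. Its log2 fold change was 1.96 ± 0.41 in WT (95% interval 1.01 to 2.91, adjusted p = 0.0273, edgeR) and 2.67 ± 0.42 in AMPK-KO (1.69 to 3.65, adjusted p = 0.0217, edgeR), the largest among the 40 in both genotypes. Map1lc3b (chr8:121590361-121598760), which encodes LC3B, was at 134.3 and 105.5 CPM in WT d0, 154.6 and 154.0 in AMPK-KO d0, 206.4 and 263.6 in WT d8, and 299.1 and 341.2 in AMPK-KO d8. Its d8 libraries were likewise all above its d0 libraries, with log2 fold changes of 0.97 ± 0.20 (adjusted p = 0.0259, edgeR) and 1.05 ± 0.20 (adjusted p = 0.0264, edgeR). Gabarapl2 (chr8:111940703-111953612), of the GABARAP branch, was at 40.8 and 45.65 CPM in WT d0 and 71.28 and 83.61 in WT d8, and at 51.24 and 62.88 in AMPK-KO d0 and 83.59 and 118.4 in AMPK-KO d8. It was called in WT (0.84 ± 0.21, adjusted p = 0.0461, edgeR) and missed the threshold in AMPK-KO (0.82, adjusted p = 0.055, edgeR). With a replicate block it passed in AMPK-KO (0.81, adjusted p = 0.0241, edgeR). The summed level of the 5 genes was 647.1 and 507.3 CPM in WT d0, 863.2 and 1030 in WT d8, 581.9 and 586.1 in AMPK-KO d0, and 984.8 and 1282 in AMPK-KO d8.

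**Figure D3:**
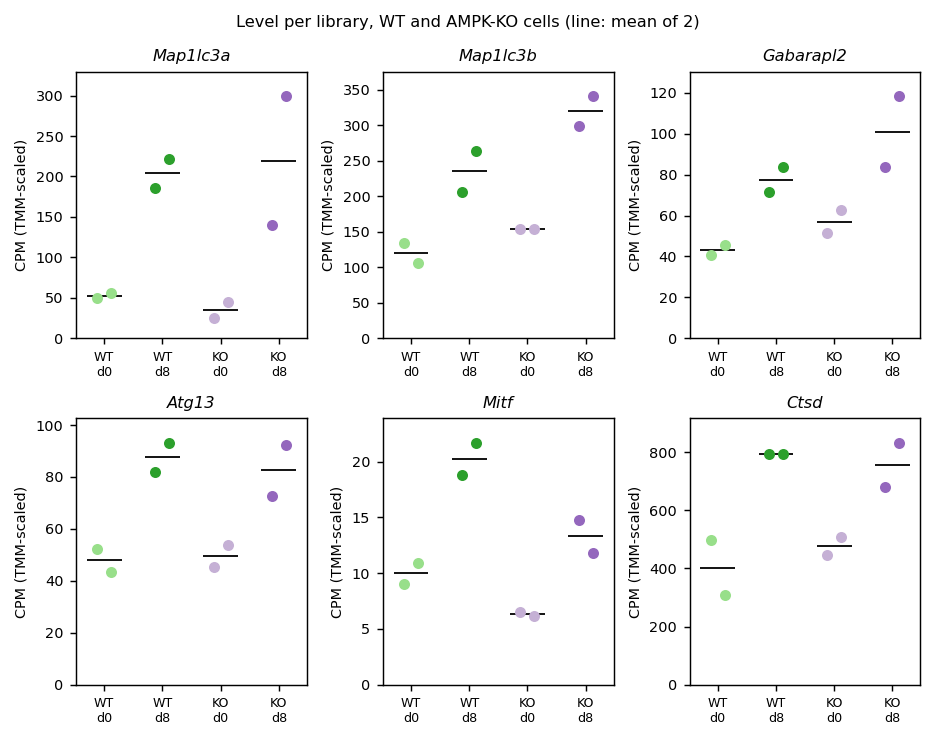
CPM per library of Map1lc3a, Map1lc3b, Gabarapl2, Atg13, Mitf and Ctsd in WT and AMPK-KO at d0 and d8, with a line at the mean of the 2 libraries. The d8 points of each genotype lay above its d0 points for all 6 genes, and those of Map1lc3a in AMPK-KO d8 were far apart (139.6 and 299.3).

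No cargo receptor was called between the days. With a replicate block Nbr1 was called higher at d8 in both genotypes (adjusted p = 0.0346 in WT and 0.0423 in AMPK-KO, edgeR). Sqstm1 was at 785.7 and 674.6 CPM in WT d0, 648.7 and 698.8 in WT d8, 1483 and 931.6 in AMPK-KO d0, and 1103 and 1224 in AMPK-KO d8. The days overlapped in both genotypes (log2 fold changes -0.12 ± 0.25 and -0.05 ± 0.25, adjusted p = 0.795 and 0.914, edgeR). Bnip3, a receptor for mitochondria, was at 28.17 and 59.37 CPM in WT d0 and 46 and 58.65 in WT d8, and at 26.01 and 31.28 in AMPK-KO d0 and 38.02 and 49.16 in AMPK-KO d8. Its days overlapped in WT and not in AMPK-KO (log2 fold changes 0.26 ± 0.35 and 0.61 ± 0.35, adjusted p = 0.658 and 0.297, edgeR).

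The 3 MiT/TFE factors did not share a pattern. Mitf (chr6:97807052-98021349) was at 9.067 and 10.9 CPM in WT d0 and 18.79 and 21.72 in WT d8, and at 6.542 and 6.171 in AMPK-KO d0 and 14.81 and 11.8 in AMPK-KO d8. The d8 libraries were higher in both genotypes, by a log2 fold change of 1.02 ± 0.23 in WT (adjusted p = 0.0343, edgeR) and 1.07 ± 0.23 in AMPK-KO (adjusted p = 0.037, edgeR). Tfeb went from 10.8 and 9.922 to 22.7 and 19.42 CPM in WT and from 5.81 and 9.491 to 18.89 and 14.33 in AMPK-KO, and the groups did not overlap. Its fitted changes were as large as those of Mitf (1.02 ± 0.29 and 1.12 ± 0.29) but missed the threshold (adjusted p = 0.0635 and 0.0577, edgeR). Tfe3 was at 74.52 and 67.12 CPM in WT d0, 56.96 and 46.59 in WT d8, 76.68 and 69.43 in AMPK-KO d0, and 92.77 and 63.15 in AMPK-KO d8. In WT its d8 libraries were the lower ones (-0.45 ± 0.21, adjusted p = 0.203, edgeR), and in AMPK-KO the days overlapped (0.09 ± 0.21).

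Of the lysosomal genes only the aspartic protease Ctsd (chr7:142375911-142388038) was called, in WT, though not with a replicate block. It was at 497.8 and 307.7 CPM in WT d0, 795.1 and 794 in WT d8, 447.8 and 507.5 in AMPK-KO d0, and 680.6 and 833.1 in AMPK-KO d8. The d8 libraries lay above the d0 libraries in both genotypes, with a log2 fold change of 0.98 ± 0.26 in WT (95% interval 0.38 to 1.58, adjusted p = 0.0497, edgeR, still called in 1 of 8 omissions of a library) and 0.66 ± 0.25 in AMPK-KO (adjusted p = 0.142, edgeR). Lamp1 was at 1159 and 667.7 CPM in WT d0 and 1042 and 1068 in WT d8, and at 853.5 and 668.3 in AMPK-KO d0 and 858.8 and 919.8 in AMPK-KO d8, with log2 fold changes of 0.21 ± 0.28 and 0.23 ± 0.28 (adjusted p = 0.657 and 0.63, edgeR). The WT d0 libraries of Lamp1 spanned its WT d8 libraries. All 3 genes of the lysosomal membrane (Lamp1, Lamp2 and Mcoln1) had positive fitted changes in both genotypes, none called. In AMPK-KO the log2 fold change of Lamp2 was 1.08, and DESeq2 called it (adjusted p = 0.0022). EdgeR called Lamp2 there with no filter on low counts (adjusted p = 0.00039) and with at least 10 counts in every library (0.0435). It also did so with a replicate block (0.0442) and with only the 4 libraries compared (0.0422).

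The calls between days were repeated with each of the 8 libraries left out in turn. An omission within the comparison leaves 1 library in a group, which is then assumed to vary like the other groups. Every such omission but that of WT d0 replicate 1 lowered the share of all genes called. Leaving out WT d0 replicate 2, WT d8 replicate 1 or WT d8 replicate 2 left 0 of the 6 WT calls, and in these fits 0, 1 and 0 of all 14329 genes were called. Leaving out AMPK-KO d0 replicate 1 or 2 left 0 of the 3 AMPK-KO calls, with 0 and 1 of all genes called, and so did leaving out WT d8 replicate 1 or 2, with 1.37 and 1.16% of all genes called. Without AMPK-KO d8 replicate 2, 1 gene was called in AMPK-KO (2.59% of all genes), and without AMPK-KO d0 replicates 1 and 2, 2 and 1 genes were called in WT (8.06 and 8.6% of all genes). The fold changes kept their direction, while no gene kept its call in every omission. In each genotype Map1lc3a was still called in 4 of the 8 omissions, Map1lc3b in 3 and Mitf in 2. Over the 8 omissions, the log2 fold change of Map1lc3a ranged from 1.83 to 2.05 in WT and from 2.01 to 3.16 in AMPK-KO, that of Map1lc3b from 0.78 to 1.14 and from 0.96 to 1.15, and that of Mitf from 0.88 to 1.16 and from 0.89 to 1.22. In WT that of Atg13 ranged from 0.74 to 0.996, that of Gabarapl2 from 0.72 to 0.92 and that of Ctsd from 0.67 to 1.35. Atg13 was still called in 4 of the 8 omissions, Gabarapl2 in 2 and Ctsd in 1, without WT d0 replicate 1 (1.35, adjusted p = 0.0177, edgeR), and over the omissions the adjusted p of Ctsd reached 0.201. The summed myotube markers rose with the day in both genotypes, and their part in these differences was not tested. The adipocyte marker Cd36 rose too, and its part was not tested either. It was at 0.04823 and 0.1084 CPM in WT d0, 21.48 and 17.13 in WT d8, 0 and 0 in AMPK-KO d0, and 0.4487 and 6.169 in AMPK-KO d8. The adipocyte markers Adipoq, Plin1 and Cidec had 3 or fewer counts in every library of this set. The endothelial markers (Pecam1, Cdh5 and Kdr) summed to at most 3.66 CPM.

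Since the 2 genotypes were compared over separate libraries, their days can be set side by side. The fitted change was positive in both genotypes for 30 of the 40 genes (75%), beside 5726 of the 14329 genes tested, and negative in both for 4 (10%, Sqstm1, Ctsl, Bnip3l and Gla), beside 5370. Called higher in both were Map1lc3a, Map1lc3b and Mitf (7.5%, beside 2.62%). For 19 genes (47.5%, beside 19.9%) both d8 libraries lay above both d0 libraries in each genotype, and for 0 both lay below (beside 20.1%). The 19 came from all 9 roles: Ulk1, Ulk2 and Atg13 of the ULK complex, Becn1, Pik3c3 and Atg14 of the PI3-kinase complex, Atg2a, Atg10, the ATG8 genes Map1lc3a, Map1lc3b, Gabarapl1 and Gabarapl2, the receptor Nbr1, Tfeb and Mitf, Lamp2 and the lysosomal calcium channel Mcoln1, and the proteases Ctsb and Ctsd. The difference of the change between genotypes was itself tested. No gene of the 40 passed, none of the 40 had an unadjusted p under 0.05, and 0% of all 14329 genes were called (729 at an unadjusted p under 0.05, edgeR's quasi-likelihood test). DESeq2 likewise called 0 of the 40, and 54 genes in all. The fitted differences of the 40 ran from -0.54 to 0.71. A p that misses the threshold does not show that the genotypes changed alike.

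The other genes of the pathway, 133 further autophagy, lysosome, proton pump and nutrient sensing genes of which 126 were tested, had mostly positive fitted changes at d8. In WT 97 of 126 were positive (77%, beside 50.9% of all genes), with a median log2 fold change of 0.28, and in AMPK-KO 104 (82.5%, beside 51.3%), with a median of 0.32. The called genes were 7 higher and 1 lower in WT, where the share higher (5.56%) was near the 5.78% of all genes, and 11 higher and 0 lower in AMPK-KO (8.73% higher, beside 4.81%). Sort1, a sorting receptor for lysosomal proteins, went from 2.46 and 3.361 to 26.99 and 29.14 CPM in WT (3.27 ± 0.49, adjusted p = 0.0146, edgeR). Calcoco1, an autophagy receptor for the endoplasmic reticulum, went from 84.65 and 74.12 to 202.8 and 245.9 CPM in WT and from 55.58 and 70.41 to 176.7 and 264.7 in AMPK-KO (1.499 ± 0.242 and 1.808 ± 0.245, adjusted p = 0.0156 and 0.021, edgeR). Pink1, a kinase that marks damaged mitochondria, rose by 1.73 ± 0.30 and 2.00 ± 0.31 on the log2 scale (adjusted p = 0.0179 and 0.0217, edgeR). The proton pump subunit Atp6v1e1 was also among the 4 lowest adjusted p in WT (1.17 ± 0.20), and the lysosomal membrane gene Laptm4a (1.14 ± 0.19) and the transcription factor Foxo3 (0.84 ± 0.16) in AMPK-KO. The gene that fell in WT was Gnptab, an enzyme that makes the mannose 6-phosphate tag of lysosomal hydrolases (-0.72 ± 0.17). The counts of these genes rested on single libraries. In WT 32 were called higher and 0 lower without WT d0 replicate 1 (beside 16.3% of all genes called), and 0 in either direction without WT d0 replicate 2 or either WT d8 library (beside at most 0.00698%). In AMPK-KO the number called also moved with the library left out, and the share of all genes called moved with it. DESeq2 called 14 higher and 1 lower in WT and 18 higher in AMPK-KO (beside 18.1 and 17.2% of all genes called). With no filter on low counts edgeR called 20 and 1, and 21 (beside 13.1 and 12.1%).

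The second question was how the loss of AMPK changed these genes. At d0, 0 of the 40 genes were called higher or lower in AMPK-KO, where 3.52% of all genes tested were called (0.698% higher, 2.83% lower), and at d8 again 0, where 5.35% were (1.36% higher, 3.98% lower). At an unadjusted p under 0.05 the 40 held 7 genes at d0 (17.5%, beside 20.9% of all genes) and 6 at d8 (15%, beside 22.8%; edgeR's quasi-likelihood test). DESeq2 called 1 at d0 (Optn, beside 9.21% of all genes) and 3 at d8 (Wipi1, Atg10 and Sqstm1, beside 10.6%). Without a filter on low counts edgeR called 2 (Sqstm1 and Optn, beside 8.08%) and 3 (Wipi1, Sqstm1 and Optn, beside 9.98%). The fitted change was positive for 18 and negative for 22 genes at d0 (median -0.17, all genes -0.001, and 0.009 without WT d0 replicate 1), and positive for 14 and negative for 26 at d8 (median -0.08, all genes 0.04). The d8 median was -0.22 without AMPK-KO d8 replicate 2 and 0.0075 without AMPK-KO d8 replicate 1. Both AMPK-KO libraries lay above both WT libraries for 7 genes at d0 (17.5%, beside 23.7% of all genes) and 8 at d8 (20%, beside 30%), and below for 11 (27.5%, beside 25.7%) and 13 (32.5%, beside 27.9%).

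**Figure D4:**
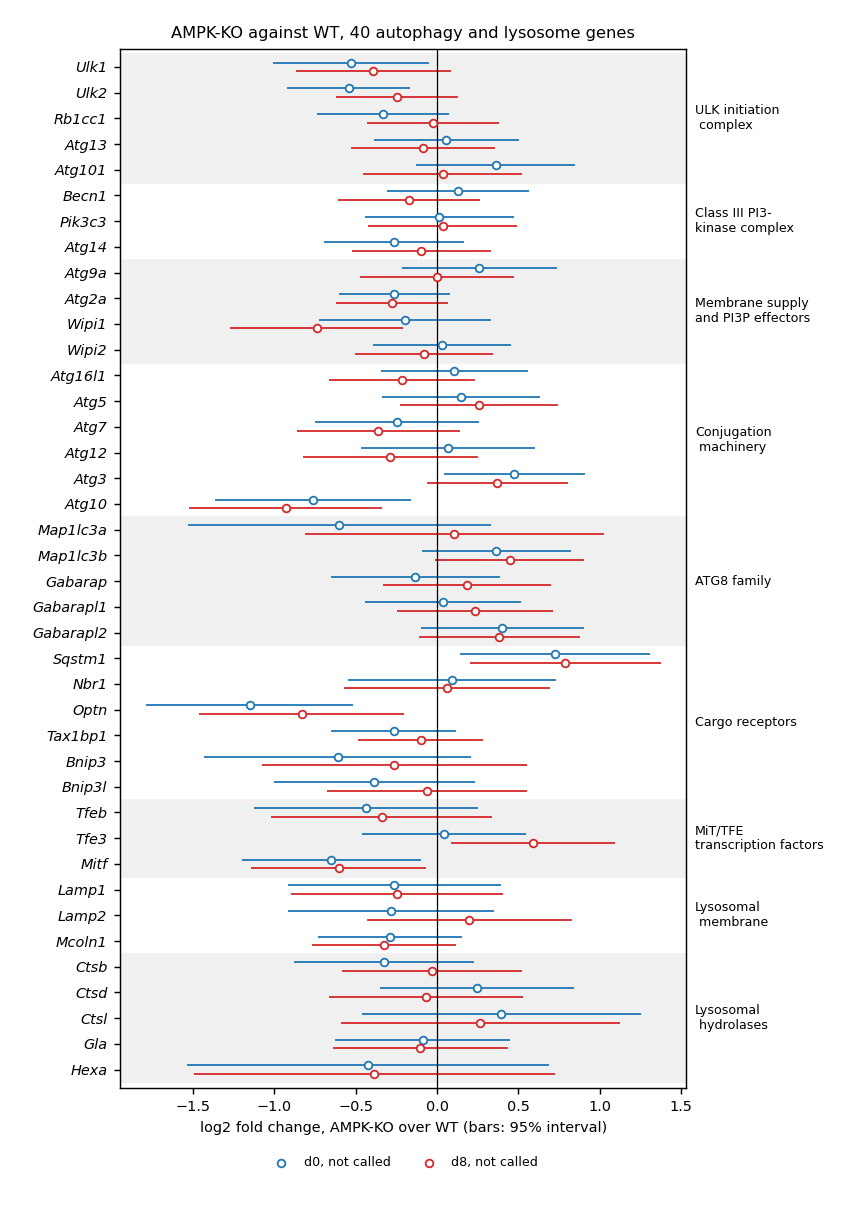
Log2 fold change of AMPK-KO over WT for the 40 genes, grouped by role, at d0 (blue) and d8 (red), with 95% intervals of edgeR's fit. No point passed an adjusted p of 0.05. Sqstm1 lay farthest right at both days (0.73 and 0.79), Optn farthest left at d0 (-1.15) and Atg10 at d8 (-0.93).

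Cargo receptors gave the highest fitted change at both days and the lowest at d0. Sqstm1 had the highest fitted change of the 40 at both days. Its WT libraries were at 785.7 and 674.6 CPM at d0 and 648.7 and 698.8 at d8, and its AMPK-KO libraries at 1483 and 931.6, and 1103 and 1224. The genotypes did not overlap at either day, yet the differences missed the threshold (0.73 ± 0.25 at d0, 95% interval 0.14 to 1.31, adjusted p = 0.162, and 0.79 ± 0.25 at d8, 0.20 to 1.37, adjusted p = 0.119, edgeR). At d0 the size rested on AMPK-KO d0 replicate 1, without which the log2 fold change of Sqstm1 was 0.35 (adjusted p = 0.604, edgeR). Optn, optineurin, had the lowest fitted change at d0. It was at 44.66 and 26.3 CPM in WT d0, 16.64 and 15.29 in AMPK-KO d0, 38.34 and 32.47 in WT d8, and 18.81 and 20.94 in AMPK-KO d8. Here too the knockout libraries were all below the WT libraries, with -1.15 ± 0.27 at d0 (95% interval -1.79 to -0.51, adjusted p = 0.0708, edgeR) and -0.83 ± 0.27 at d8 (adjusted p = 0.125, edgeR). Without WT d0 replicate 2, which leaves WT d0 with its higher library alone and takes the spread from the other groups, Optn was called at d0 (-1.48, adjusted p = 0.0251, edgeR) and at d8 (-0.83, adjusted p = 0.0499, edgeR), and without WT d0 replicate 1 it was not (-0.73 and -0.82, adjusted p = 0.18 and 0.0553, edgeR). Bnip3 overlapped at d0 and at d8 (-0.61 ± 0.35 and -0.26 ± 0.35, adjusted p = 0.378 and 0.695, edgeR).

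Atg10, the enzyme that joins ATG12 to ATG5, had the lowest fitted change at d8. It was at 6.415 and 6.723 CPM in WT d0, 3.716 and 4.021 in AMPK-KO d0, 11.29 and 13.94 in WT d8, and 7.098 and 6.121 in AMPK-KO d8. The groups did not overlap at either day, and the d8 difference was -0.93 ± 0.25 (95% interval -1.52 to -0.34, adjusted p = 0.084, edgeR). Among the initiation genes, Ulk1 was lower in both AMPK-KO libraries than in both WT libraries at each day (-0.53 ± 0.20 and -0.39 ± 0.20, adjusted p = 0.203 and 0.299, edgeR). Becn1 was within the spread (0.13 ± 0.18 and -0.17 ± 0.18). Map1lc3b was higher in both AMPK-KO libraries at each day (0.36 ± 0.19 and 0.45 ± 0.19, adjusted p = 0.345 and 0.228, edgeR), and none of the 5 ATG8 genes was called.

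Of the MiT/TFE factors, Mitf was lower in the knockout libraries at both days, with log2 fold changes of -0.65 ± 0.23 and -0.61 ± 0.23 (adjusted p = 0.176 and 0.177, edgeR). Tfeb had fitted changes of -0.44 ± 0.29 and -0.34 ± 0.29 (adjusted p = 0.455 and 0.525, edgeR). Tfe3 was at 0.04 ± 0.21 at d0 and 0.59 ± 0.21 at d8, where both AMPK-KO libraries (92.77 and 63.15 CPM) were above both WT libraries (56.96 and 46.59) and the difference missed the threshold (adjusted p = 0.163, edgeR). Of the lysosomal genes, Lamp1 was at -0.26 ± 0.28 and -0.25 ± 0.28, with Ctsd at 0.25 ± 0.25 and -0.07 ± 0.25. The 95% interval of Ctsd was -0.35 to 0.84 at d0 and -0.67 to 0.53 at d8, and that of Lamp1 -0.92 to 0.39 and -0.90 to 0.41. The myotube marker sum was also lower in AMPK-KO d0 than in WT d0, and its part in these differences was not tested.

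Among the other pathway genes, Npc1, the cholesterol exporter of the lysosome, fell in AMPK-KO at both days. It was at 97.52 and 82.52 CPM in WT d0 and 45.48 and 42.73 in AMPK-KO d0, and at 74.98 and 70.71 in WT d8 and 46.79 and 42.8 in AMPK-KO d8. The log2 fold changes were -1.03 ± 0.15 (adjusted p = 0.0173, edgeR) and -0.70 ± 0.15 (adjusted p = 0.0434, edgeR). With 1 library left out the change of Npc1 stayed between -1.15 and -0.91 at d0 and between -0.77 and -0.64 at d8. The d0 call was lost without WT d0 replicate 1, either AMPK-KO d0 library or WT d8 replicate 1 (adjusted p = 0.0507, 0.111, 0.104 and 0.0501, edgeR), and the d8 call without any 1 of the d8 or AMPK-KO d0 libraries (adjusted p = 0.073 to 0.232, edgeR). Both were lost with only the 4 libraries compared (adjusted p = 0.0597 and 0.053, edgeR), and the d8 call with at least 10 counts in every library (adjusted p = 0.0604, edgeR). It was the only one of the 126 tested called at d0 (0.794%, beside 2.83% of all genes called lower). At d8, 3 rose (2.38%, beside 1.36%) and 2 fell (1.59%, beside 3.98%). These counts moved with the setting and with the library left out. DESeq2 called 4 higher and 6 lower at d0, and 6 and 8 at d8 (beside 9.21 and 10.6% of all genes called). With no filter on low counts edgeR called 5 and 11 at d0, and 7 and 13 at d8 (beside 8.08 and 9.98%). Uvrag, a partner of Beclin 1, was at 39.22 and 39.83 CPM in WT d8 and 81.34 and 70.2 in AMPK-KO d8 (0.94 ± 0.17, adjusted p = 0.0298, edgeR). The proton pump subunit Tcirg1 rose by 0.74 ± 0.14 and the mannose 6-phosphate receptor Igf2r by 1.06 ± 0.21 on the log2 scale (adjusted p = 0.0332 and 0.0372, edgeR). The calls of Uvrag, Tcirg1 and Igf2r were lost without any 1 of the d8 or AMPK-KO d0 libraries, where fewer of all genes were called as well. The other gene that fell, the protease Ctsc, had 18 and 52 counts in WT d8 and 2 and 0 in AMPK-KO d8, too few for a useful fold.

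The third question was whether TET2-S97E altered these genes in AMPK-/- cells. Of the 40, 0 rose and 2 fell in TET2-S97E, the protease Ctsl and the mitochondrial receptor Bnip3, where 6.98% of the 13433 genes tested were called (3.71% higher, 3.28% lower). The share of the 40 called lower, 5%, was near that background. The fitted change was positive for 21 genes and negative for 19, with a median of 0.02 beside 0.01 over all genes. The TET2-S97E libraries lay wholly above the TET2-WT libraries for 3 genes (Atg9a, Atg7 and Lamp1, 7.5% beside 7.3% of all genes) and wholly below for 6 (Wipi1, Wipi2, Bnip3, Bnip3l, Nbr1 and Ctsl, 15% beside 7.99%).

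Ctsl (chr13:64359337-64370890) was at 1817, 1928, 1913 and 1605 CPM in the TET2-WT libraries (clone 1, then clone 2) and at 1208, 1150, 1051 and 800.7 CPM in the TET2-S97E libraries. No TET2-S97E library reached a TET2-WT library, and the log2 fold change was -0.79 ± 0.16 (95% interval -1.14 to -0.43, adjusted p = 0.0219, edgeR). Bnip3 (chr7:138890836-138909519) was at 87.4, 82.08, 60.26 and 51.73 CPM in TET2-WT and 48.07, 34.95, 33.92 and 23.69 in TET2-S97E. Its groups did not overlap either, although TET2-WT clone 2 lay near TET2-S97E clone 1, and the log2 fold change was -1.002 ± 0.237 (-1.53 to -0.47, adjusted p = 0.0358, edgeR). Mitochondrial transcripts took 1.138, 1.002, 1.384 and 2.145% of the counts in TET2-WT and 2.293, 2.123, 2.029 and 2.087% in TET2-S97E, so that 3 of the 4 TET2-WT libraries lay below all TET2-S97E libraries, and the part of this difference in the changes of Ctsl and Bnip3 was not tested. Libraries of 1 clone are not independent, so these p-values are too small. With the clone as a random effect (limma-voom) the adjusted p was 0.0753 for Ctsl and 0.0927 for Bnip3, and with counts summed per clone (edgeR) it was 0.407 and 0.354, where 0 of all genes were called. Without TET2-WT clone 1, the log2 fold changes were -0.74 and -0.67 (adjusted p = 0.12 and 0.223, edgeR), and without TET2-S97E clone 2 they were -0.63 and -0.77 (adjusted p = 0.0633 and 0.113, edgeR). Without TET2-WT clone 2, Ctsl was at -0.83 (adjusted p = 0.0537, edgeR). Both calls were also lost without replicate 1 or 2 of TET2-WT clone 1, replicate 1 of TET2-WT clone 2 or replicate 1 of TET2-S97E clone 2, and that of Bnip3 without replicate 2 of either TET2-S97E clone. Over these omissions of 1 library the log2 fold change stayed between -0.86 and -0.68 for Ctsl and between -1.19 and -0.85 for Bnip3. Without TET2-S97E clone 1, whose myotube marker sums were the highest on average, they were -0.98 and -1.30 (adjusted p = 0.0307 and 0.0332, edgeR).

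**Figure D5:**
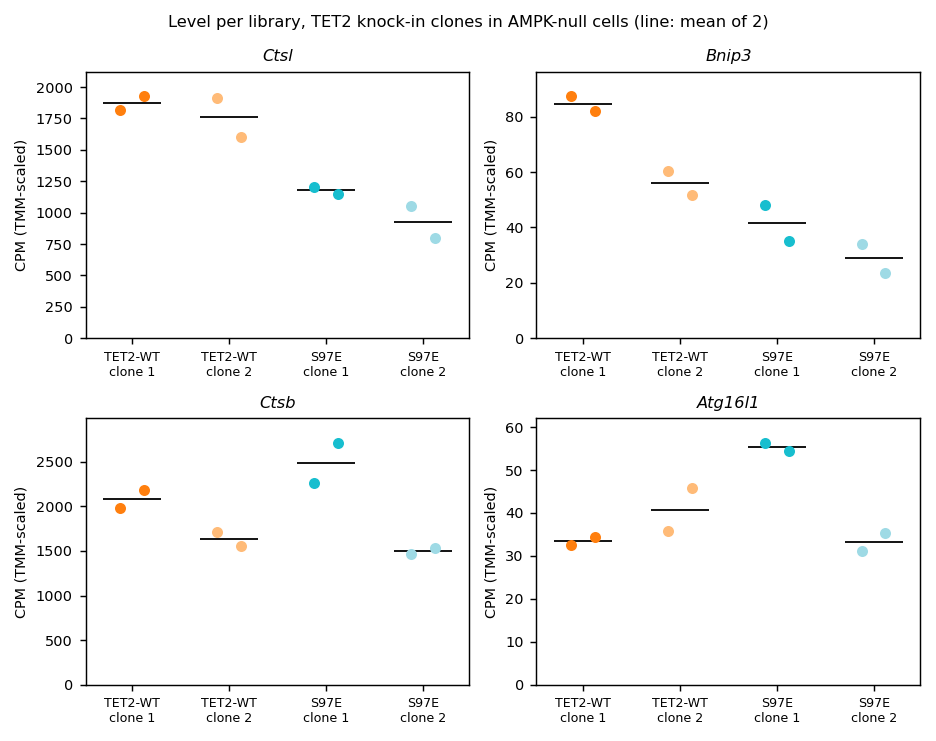
CPM per library of Ctsl, Bnip3, Ctsb and Atg16l1 in the 2 TET2-WT clones and the 2 TET2-S97E clones, with a line at the mean of the 2 libraries of a clone. All TET2-S97E points lay below all TET2-WT points for Ctsl and Bnip3, while TET2-S97E clone 1 stood above the other clones for Ctsb and Atg16l1.

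The other genes described in full were not called between the TET2 genotypes. Ulk1 was at 46.3, 44.98, 50.56 and 81.27 CPM in TET2-WT and 62.69, 85.13, 61.49 and 83.61 in TET2-S97E (0.39 ± 0.21, adjusted p = 0.305, edgeR). Without TET2-WT clone 2 replicate 2, the high library of its group, Ulk1 was called higher (0.63, adjusted p = 0.0453, edgeR). Mitf was at 11.8, 9.888, 12.55 and 13.9 CPM in TET2-WT and 15.84, 23.85, 12.22 and 12.32 in TET2-S97E, where the higher values were those of clone 1 (0.42 ± 0.24, adjusted p = 0.33, edgeR). Lamp1 was at 964.2, 1118, 1089 and 865.9 CPM in TET2-WT and 1146, 1295, 1253 and 1266 in TET2-S97E. These did not overlap, and the difference of 0.30 ± 0.13 did not pass (adjusted p = 0.211, edgeR). Sqstm1, which had differed most upward in AMPK-KO, was at 1356, 1555, 952.3 and 903.3 CPM in TET2-WT and 1193, 1354, 1183 and 1238 in TET2-S97E. Here the clones of TET2-WT differed more than the genotypes did (0.06 ± 0.19). Ctsd showed the same, at 734.3, 922, 555.4 and 504.6 CPM in TET2-WT and 784, 853, 554 and 525.9 in TET2-S97E, with clone 1 above clone 2 in both genotypes and a fitted change of 0.00 ± 0.23. Becn1, Map1lc3b, Tfeb and Tfe3 had fitted changes of 0.03, -0.10 ± 0.13, 0.14 ± 0.19 and 0.05 ± 0.14. The numbers of clones in different genotypes name separate lines and pair nothing.

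The spread between clones of 1 genotype was examined in the same way. Between the TET2-S97E clones 2 of the 40 genes fell in clone 2 and 0 rose, where 6.17% of 14459 genes were called, 3.35% higher and 2.82% lower. Atg16l1 (chr1:87755870-87792428) was at 56.39 and 54.44 CPM in clone 1 and 31.15 and 35.42 in clone 2, beside 32.51, 34.36, 35.76 and 45.71 in TET2-WT. Ctsb (chr14:63122462-63145923), a cysteine protease, was at 2267 and 2715 CPM in clone 1 and 1465 and 1537 in clone 2, beside 1976, 2181, 1713 and 1552 in TET2-WT. Clone 1 stood above clone 2 for both, each with a log2 fold change of -0.73 ± 0.17 for clone 2 over clone 1 (adjusted p = 0.0392 and 0.0365, edgeR). With 1 library left out, the log2 fold change stayed between -0.82 and -0.69 for Atg16l1 and between -0.85 and -0.59 for Ctsb. The adjusted p passed the threshold in 2 of the 8 omissions, those of TET2-WT clone 2, and reached 0.165 for Atg16l1 and 0.199 for Ctsb (edgeR). Between the TET2-WT clones 0 of the 40 were called by edgeR, where 0.858% of all genes were (0.463% higher, 0.394% lower), with 6 at an unadjusted p under 0.05 (15%, beside 20.5% of all genes), and 29 of 40 fitted changes were negative (median -0.13, all genes -0.003). DESeq2 called 2, Sqstm1 and Ctsd (5%, beside 6.54% of all genes).

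Of the other pathway genes, 4 rose and 3 fell in TET2-S97E among 125 tested (3.2% and 2.4%, beside 3.71% and 3.28% of all genes). The protease Ctsf was at 14.15, 17.22, 7.968 and 5.309 CPM in TET2-WT and 3.228, 1.92, 0.6058 and 0.8168 in TET2-S97E (-2.77 ± 0.57, adjusted p = 0.0224, edgeR), with clone 1 above clone 2 within each genotype. Trp53inp1, a stress-induced partner of ATG8 proteins, was at 27.26, 20.38, 23.4 and 32.07 CPM in TET2-WT and 39.24, 45.82, 69.01 and 83.55 in TET2-S97E (1.21 ± 0.25, adjusted p = 0.0236, edgeR). The lysosomal membrane genes Scarb2, a sorting receptor, and Slc17a5, a sialic acid exporter, rose by 0.59 ± 0.13 and 0.55 ± 0.12 on the log2 scale (adjusted p = 0.0271 and 0.0281, edgeR). As for Ctsl and Bnip3, the calls did not hold once clones were taken into account: 0 of the 125 were called with clone as a random effect (Ctsf 0.0609, Trp53inp1 0.0758, Scarb2 0.0985 and Slc17a5 0.108, adjusted p, limma-voom) and 0 with counts summed per clone (adjusted p = 0.338 to 0.453 for these 4, edgeR). Without TET2-WT clone 1 replicate 1 or TET2-WT clone 2 replicate 1 also 0 were called (beside 2.29 and 2.26% of all genes). Between the TET2-S97E clones 4 of 126 rose and 3 fell in clone 2 (3.17% and 2.38%, beside 3.35% and 2.82%). DESeq2 called 6 higher and 7 lower (beside 8.93% of all genes called), and edgeR with a replicate block 8 and 9 (beside 10.7%). These counts also moved with the library left out. Sort1 rose from 10.79 and 7.68 to 29.03 and 25.78 CPM (1.58 ± 0.22, adjusted p = 0.00388, edgeR) and the hydrolase cofactor Gm2a fell from 17.65 and 17.96 to 8.128 and 8.07 CPM (-1.13 ± 0.18, adjusted p = 0.00686, edgeR). The protease Ctsh rose and Ctsf fell (1.41 ± 0.25 and -1.81 ± 0.39). The myotube marker sum differed between the genotypes and between the TET2-S97E clones, and its part in these differences was not tested.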

How the data were processed

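Total RNA of C2C12 cells was made into libraries with a total RNA kit (VAHTS). Per the submitters' processing notes and the study's methods, reads were demultiplexed with bcl2fastq 2.17, trimmed with Trim Galore 0.4.5, aligned to GRCm38 (mm10) with STAR 2.5.3a and counted per gene with featureCounts 1.5.3 on GENCODE M12. The authors deposited raw counts per gene, in 1 table for WT and AMPK-KO and 1 for the TET2 lines. The setting for strand and for reads with several matches is not given in the sources used here.

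Here each table was analysed on its own, with no test across tables, and levels are CPM scaled by TMM factors. Genes kept by filterByExpr were tested with edgeR 4.0.16 (R 4.3.3, quasi-likelihood test, 1 mean per group; genotype alone for TET2-S97E against TET2-WT). P-values were adjusted by Benjamini-Hochberg over all genes tested, and an adjusted p under 0.05 was called. SEs were derived from the fold change and the F statistic. Alternatives were DESeq2 1.42.0, limma-voom 3.58.1 with clone as a random effect (correlation 0.357), other scalings and filters, sums per clone, a replicate block and leaving out each library or clone. The code was also run on simulated counts with 1 fixed spread for all genes and no clone effect. That run does not show how the tests behave with the spread and clones of these data. Coordinates and exon lengths came from GENCODE M21 (GRCm38), which held 49326 of the 49585 identifiers, and promoters from RefSeq.

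The 40 genes and the other lists were chosen with earlier results of these data known. Given in full were 10 set genes, each gene called in a comparison, and the extremes of AMPK-KO against WT. Of the other pathway genes at most 4 called per comparison were named, by lowest adjusted p, and Gnptab, Ctsc and the genes listed for a count or a spread were named after their values were seen.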

Additional observations from a re-analysis of the deposited data

Results flagged for a closer look

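Within the 4 libraries of each TET2 genotype, each of the 40 genes was examined for a library that stood far from the other 3, by the gap to its nearest neighbour over the whole range (Dixon's ratio, read against its 95% critical value for 4 libraries). Of 80 sets tested, 5 passed. Chance gives about 1 in 20 for 4 independent libraries. Libraries of 1 clone are not independent and the sets share libraries, so the rate expected here is not known. Atg101 stood high in TET2-S97E clone 1 replicate 2 (43.84 CPM against 29.64, 31.1 and 31.22, ratio 0.889). Atg12 stood high in the same library (107.2 CPM against 74.75, 75.02 and 79.46, ratio 0.855). Map1lc3b stood low in TET2-S97E clone 1 replicate 1 (291.3 CPM against 347.5, 349.3 and 357.2, ratio 0.853). Tfe3 stood low in TET2-WT clone 2 replicate 1 (58.25 CPM against 82.74, 83.62 and 84.01, ratio 0.951). Ulk1 stood high in TET2-WT clone 2 replicate 2 (81.27 CPM against 44.98, 46.3 and 50.56, ratio 0.846).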

How the results depend on the processing

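With 2 libraries a group, the number of the 40 genes called moved with the setting while most fold changes did not: of the fold changes recomputed under other settings, 827 kept their direction and their side of the threshold, 85 lost a call, 21 gained one and 31 changed sign. Only a gene called in the main fit could lose a call, and most of the recomputed fold changes were not called there. The 827 thus do not show that the calls were stable. DESeq2's Wald test called 1 gene in AMPK-KO against WT at d0, 3 at d8, 8 in d8 against d0 in AMPK-KO, 5 in TET2-S97E against TET2-WT and 2 between the TET2-WT clones, where it also called more of all genes (9.21, 10.6, 17.2, 11.1 and 6.54%). With no filter on low counts edgeR called 2, 3, 12 (d8 against d0 in AMPK-KO) and 2 (TET2-WT clones), beside 8.08, 9.98, 12.1 and 6.36% of all genes. With at least 10 counts in every library it called 7 in d8 against d0 in AMPK-KO, beside 12.5%. With only the 4 libraries compared, 2 were called in d8 against d0 in WT, beside 8.85%. In TET2-S97E against TET2-WT the count was 0 with counts summed per clone, 0 with clone as a random effect, 0 without TET2-WT clone 1 and 1 (Atg9a, higher) without TET2-S97E clone 2, beside 0, 1.24, 1.63 and 8.18% of all genes. The call of Ctsd in d8 against d0 in WT was lost under upper-quartile scaling (adjusted p = 0.0502, edgeR). The causes were not tested.

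Libraries with the same replicate number were compared for a shared deviation. Their correlations were 0.13 to 0.37 in the WT and AMPK-KO set and -0.06 to 0.54 in the TET2 set. In the first set replicate 1 also had the larger mitochondrial share in every group. The shares were 1.358 and 0.5682% in WT d0, 1.162 and 0.6659% in AMPK-KO d0, 1.427 and 0.9696% in WT d8, and 0.9768 and 0.6828% in AMPK-KO d8. With 2 numbers a comparison and no label tying a number to a batch, it cannot be told whether libraries with equal numbers share a batch. With a replicate block, 8 genes were called in d8 against d0 in WT, 8 in AMPK-KO, 2 in TET2-S97E against TET2-WT and 1 (Sqstm1) between the TET2-WT clones, beside 16.5, 12.9, 6.39 and 4.68% of all genes. In WT the block added Ulk1 (adjusted p = 0.0497), Atg10 and Nbr1 and lost Ctsd, and in AMPK-KO it added Ulk1 (0.0363), Atg13 (0.047), Gabarapl2 (0.0241), Nbr1 and Lamp2 (0.0442), all by edgeR. With the block, none of the 40 genes was called in AMPK-KO against WT at either day. Of all genes, 5.16% were called at d0 and 7.98% at d8. Of the other pathway genes, 1 was called higher and 2 lower at d0, and 4 higher and 3 lower at d8.

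Leaving out 1 library at a time, the counts ranged from 0 to 1 in AMPK-KO against WT (d0 and d8 alike), 0 to 7 in d8 against d0 in WT, 0 to 6 in AMPK-KO, 0 to 4 in TET2-S97E against TET2-WT and 0 to 2 between the TET2-S97E clones. The share of all genes called ranged over the same omissions from 0.119 to 4.29% (d0) and 0.726 to 6.53% (d8) in AMPK-KO against WT, 0 to 16.3% and 0 to 12.4% in d8 against d0 in WT and AMPK-KO, 2.26 to 7.78% in TET2-S97E against TET2-WT and 3.24 to 7.12% between the TET2-S97E clones. Fold changes that changed sign belonged to genes not called. In AMPK-KO against WT these were, at d0, Bnip3 (-1.06 to 0.025), Tfe3 (-0.029 to 0.12), Lamp1 (-0.61 to 0.18) and Ctsd (-0.060 to 0.63), and at d8 Ctsd (-0.22 to 0.068). In d8 against d0 they were Bnip3 (-0.20 to 0.89) and Lamp1 (-0.14 to 0.64) in WT, and Sqstm1 (-0.34 to 0.32) and Tfe3 (-0.21 to 0.34) in AMPK-KO. In TET2-S97E against TET2-WT they were Becn1 (-0.0072 to 0.073), Sqstm1 (-0.052 to 0.214), Tfe3 (-0.067 to 0.091) and Ctsd (-0.13 to 0.18). The same 4 genes also changed sign there under other settings. Without TET2-WT clone 2, Becn1 was at -0.040, Sqstm1 at -0.23, Tfe3 at -0.065 and Ctsd at -0.29. Without TET2-S97E clone 2 Tfe3 was at -0.019, and without TET2-S97E clone 1 Ctsd was at -0.34. Under upper-quartile scaling Becn1 was at -0.0063 and Ctsd at -0.045, and with sums per clone at -0.00078 and -0.039. Ctsd was at -0.0012 with DESeq2 and -0.0091 with no filter.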
